A study of Mus musculus with 4 samples.

Results

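Natural killer (NK) cells were examined among spleen cells of 2 mice carrying a GFP-marked B-cell lymphoma, 1 of genotype pBIC10 and 1 of genotype pBIC. Members were chosen by their counts of a few transcripts: an NK barcode was a droplet barcode with at least 1 UMI (1 counted RNA molecule) of Ncr1, no UMI of Cd3e or Cd3g, no T-cell receptor (TCR) contig, at most 2 UMIs of Cd79a and Cd79b together, no UMI of Csf1r and under 10% mitochondrial UMIs. These limits left 16 NK barcodes of 14991 in pBIC10 and 42 of 18129 in pBIC, 58 of 33120 in all. They were set against the CD8 T barcodes of the same library, which had a TCR beta contig and at least 1 UMI of Cd8a or Cd8b1 and numbered 3191 in pBIC10 and 6692 in pBIC.

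Both mice were female, and the labels name no treatment. They give the genotypes by name alone, list no alleles and no age, and do not say which promoter drives any transgene or how pBIC10 alters Il10, although the series is about IL-10 made by the lymphoma cells. Each spleen was dissociated, freed of red cells and sorted into live GFP-positive and GFP-negative cells, which were mixed at 20% and 80% before 5' droplet sequencing with a matching TCR library. With 1 mouse and 1 library per genotype, the effects of genotype, mouse, tumour and library cannot be told apart, no test across mice was possible, and barcodes of 1 mouse are not replicates. Every interval below is a 95% interval for counting error alone.

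NK cells are innate lymphocytes that kill without a rearranged antigen receptor. They read the balance between inhibitory receptors for MHC class I, such as many of the Ly49 family and the CD94/NKG2A pair, and activating receptors. Activating receptors include NKG2D and NKp46, the product of Ncr1, and NKp46 signals through adaptors that carry ITAM motifs. Killing goes through granules that hold perforin, which opens the target membrane, and granzymes, the proteases that follow it. In the mouse, maturing NK cells gain CD11b (Itgam) and KLRG1 and lose CD27, and IL-15 acting through CD122 (Il2rb) keeps them alive.

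Selection by transcripts was steep. In pBIC10, 24 barcodes had an Ncr1 UMI, 17 of them lacked Cd3e and Cd3g, all 17 lacked a TCR contig and passed the B-cell limit, and 16 also lacked Csf1r. In pBIC the counts were 168, then 49, 48, 43 and 42 under the same limits in turn, and the mitochondrial limit removed no further barcode in either library. NK barcodes made up 0.107% of the pBIC10 library (Clopper-Pearson interval 0.0610 to 0.173%) and 0.232% of the pBIC library (0.167 to 0.313%). Per 1000 barcodes with a TCR beta contig there were 4.38 in pBIC10 and 5.16 in pBIC. The sort fixed the ratio of lymphoma to other cells, so these shares are not the frequencies in the spleen.

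The NK barcodes, chosen by a rule that needs an Ncr1 UMI and so favours deep barcodes, carried more UMIs than the CD8 T barcodes. Their median was 19756 UMIs in pBIC10 (range 689 to 39166) and 11060.5 in pBIC (range 501 to 38514), against 8316 and 6935.5 for the CD8 T barcodes of pBIC10 and pBIC. Summed, they held 272779 UMIs in pBIC10 and 502245 in pBIC. Drawn down to 2000 UMIs each, NK barcodes showed a median of 985 genes in pBIC10 and 1038 in pBIC, next to 978 and 1058 for CD8 T barcodes, with 3 and 5 NK barcodes left out as too shallow. Members with 1 Ncr1 UMI had median totals of 3434 UMIs in pBIC10 and 1900 in pBIC, and those with at least 2 had 23498 and 12297. The part of the rule in the depth difference was not tested.

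The NK barcodes held 62 of the 85 Ncr1 UMIs of the pBIC10 library but only 398 of the 1599 of the pBIC library. Ncr1 was rare in CD8 T and B-lineage barcodes. It had a UMI in 0.0940% of CD8 T barcodes of pBIC10 and 0.344% of those of pBIC, in 0 of 1705 B-lineage barcodes of pBIC10 (Clopper-Pearson upper bound 0.216%) and in 0.110% of the 2734 of pBIC, at median depths of 25329 and 15342.5 UMIs. Within the NK barcodes, Ncr1 ran from 1 to 13 UMIs with a median of 2 in pBIC10 and from 1 to 27 with a median of 8 in pBIC, and these counts were used by the rule. At its lower edge, 7 of 16 pBIC10 and 5 of 42 pBIC members had a single Ncr1 UMI, with median totals of 3434 and 1900 UMIs. Just outside it, 4 barcodes of pBIC10 and 5 of pBIC had Klrb1c but no Ncr1.

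The limit on CD3 mattered far more in pBIC. In pBIC10, 4 barcodes met every other condition, had no TCR contig and carried Cd3e or Cd3g, against 80 in pBIC. The 80 had a median of 6 and up to 68 UMIs of the pair, and 88.8% had Cd3g while 33.8% had Cd3e and 16.2% had Trac. They carried Klrb1c in 97.5%, Tyrobp in 97.5% and Klra8 in 58.8%, and Gzma averaged 10614 UMIs per 1000000 (CPM) across them. Only 1 or 2 UMIs of CD3 had put 28 of the 80 outside. With the CD3-bearing barcodes counted, the shares would be 0.133% in pBIC10 and 0.673% in pBIC, so the pBIC share depends on this limit by more than the counting error.

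The label was read against the markers given for it. Of the other 4 markers (Klrb1c, Eomes, Prf1 and Klra8), at least 2 had a UMI in 13 of 16 pBIC10 and 38 of 42 pBIC members, and none had one in 1 and 3 members. Klrb1c had no UMI in 7 of 16 pBIC10 and 5 of 42 pBIC members. Eomes and Prf1 were also present in CD8 T barcodes, so 2 markers do not by themselves separate NK from T barcodes. The same mark was met by 3 of 3 pBIC10 and 22 of 33 pBIC barcodes with Ncr1 and a TCR contig. T-cell transcripts (a list of 10, among them Cd3d, Trac, Cd5, Cd6 and Cd28) summed to 136 CPM in pBIC10 NK and 165 CPM in pBIC NK barcodes, against 2814 and 3296 CPM in CD8 T barcodes of pBIC10 and pBIC. These follow in part from the limits of the rule. Trac, Cd4, Cd5, Cd6 and Cd28 were at 0 in pBIC10, and Cd5 and Cd6 in pBIC. Still, 11 of 16 pBIC10 and 32 of 42 pBIC members had a UMI of the list. Of its measured genes, 5 of 6 in pBIC10 and 6 of 7 in pBIC were lower than in CD8 T barcodes, and 1 in each was within 2-fold. Trbc1 and Trbc2 were among those present, with counts given under the other observations. Of 9 markers of ILC1, the tissue-resident relatives of NK cells, Cxcr6, Itga1 and Itgae were at 0 in pBIC10 and Itgae in pBIC. The 9 summed to 121 CPM in pBIC10 NK and 388 CPM in pBIC NK barcodes, against 315 and 422 CPM in CD8 T barcodes of pBIC10 and pBIC. Tmem176a and Tmem176b of this list were higher in pBIC NK than CD8 T barcodes, at 149 and 5.25 CPM (log2 ratio 4.83) and at 89.6 and 8.41 CPM (3.41), each in 6 of 42 members, and 1 barcode held 73.3% of the Tmem176a UMIs. Cxcr6, Inpp4b and Rora were lower there at -3.91, -2.45 and -2.27. Monocyte/macrophage transcripts (6 genes) summed to 121 and 59.7 CPM and neutrophil transcripts (5 genes) to 139 and 17.9 CPM in the NK barcodes of pBIC10 and pBIC, below the CD8 T sums in each library. The rule limited Csf1r and B-cell transcripts in NK but not in CD8 T barcodes, so this order follows in part from the selection. In pBIC the median barcode was at 0 for both lists, in NK and in CD8 T barcodes. Xcr1, Clec9a, Siglech and Ccr9, which mark dendritic cells, were at 0 in the NK barcodes of both libraries. A single pBIC member stood apart with 168 UMIs of Fscn1, 78 of Ccr7 and 29 of Il12b and none of the other 4 markers. These 3 genes are typical of mature dendritic cells, and it held all Ccr7 UMIs of the pBIC NK barcodes.

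The libraries shared 712 barcode sequences, 3 of them pBIC10 members and 2 of them pBIC members. The 2 shallowest pBIC10 members, with 724 and 689 UMIs and 1 Ncr1 UMI each, had the barcodes of pBIC droplets with 25853 and 18016 UMIs and 21 Ncr1 UMIs each, which the rule left out of the pBIC members. Whether their reads came from the pBIC library was not tested. The other pBIC10 member with a shared barcode had 28221 UMIs and 10 of Ncr1, with 0 of Ncr1 under that barcode in pBIC. Genotype ratios below are also given without all such members where 1.5-fold or more hung on them.

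The first comparison asked what set NK barcodes apart from CD8 T barcodes of the same spleen. NK barcodes carried the NK receptor genes, the adaptors Tyrobp and Fcer1g, perforin and granzymes A and C at higher levels in both mice, and the chemokines Ccl3, Ccl4 and Ccl5, Ifng, Gzmk and the checkpoint genes Pdcd1, Lag3 and Ctla4 at lower levels. In pBIC10, of 3587 genes whose mean level was worth at least 10 UMIs in the smaller set, 5.83% were at least 2-fold higher in NK barcodes and 5.19% at least 2-fold lower. In pBIC, of 6068 genes, 3.61% were higher and 5.54% lower. In either direction these were 11% in pBIC10 and 9.15% in pBIC. The median log2 ratio over all these genes was 0.02 in pBIC10 and -0.01 in pBIC. A count of called genes means at least 2-fold throughout and is a description of these libraries. A gene near 0 in one set reached the minimum only through the other, which fixed its direction, here and between the genotypes, so list counts and medians describe the measured genes and support nothing further.

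The lectin receptors of the CD94, NKG2 and NKR-P1 families included 10 of 10 measured genes higher in NK than in CD8 T barcodes in pBIC10 and 10 of 11 in pBIC, with none lower. The NKR-P1 genes and Klri2 reached the minimum through the NK barcodes. Klrd1, which encodes CD94, had 488 CPM in NK and 91.5 CPM in CD8 T barcodes of pBIC10 (log2 ratio 2.41, interval 2.15 to 2.66), and 751 and 120 CPM in pBIC (2.64, 2.49 to 2.79). Its partner Klrc1 (NKG2A, inhibitory) had log2 ratios of 1.85 in pBIC10 and 1.79 in pBIC, and Klrc2 (NKG2C, activating) 3.74 and 4.12. Klrk1, the gene of the activating receptor NKG2D, stood at 447 CPM in NK and 38.2 CPM in CD8 T barcodes of pBIC10 and at 571 and 64.8 CPM in pBIC. The NKR-P1 genes were close to absent from T cells: Klrb1c (NK1.1) had 128 CPM in NK and 0.603 CPM in CD8 T barcodes of pBIC10 and 554 and 4.94 CPM in pBIC. Klrb1b, the inhibitory NKR-P1B, had log2 ratios of 8.84 and 7.68, and Klri2 of 9.51 and 8.33. Klri2 rested on 0.131 CPM in CD8 T barcodes of pBIC10 and 0.568 CPM in those of pBIC.

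The Ly49 genes, mouse receptors for MHC class I, reached the minimum in 2 cases in pBIC10 and 6 in pBIC, through the NK barcodes alone. Their direction was thus fixed by the filter, and the values are a description. Klra7 had 128 CPM in NK and 1.65 CPM in CD8 T barcodes of pBIC10, and 424 and 7.06 CPM in pBIC. Klra9 had log2 ratios of 9.13 and 7.32, and Klra8 (Ly49H) of 7.60 in pBIC. Some Ly49 gene had a UMI in 10 of 16 pBIC10 and 33 of 42 pBIC members. These genes are near-identical in sequence and sit side by side, so the counting may have split or dropped reads among them.

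Among other activating receptors and adaptors, 6 of 13 were higher and 3 lower in NK barcodes of pBIC10, and 9 of 16 and 1 in pBIC. Tyrobp, the adaptor DAP12, reached 2416 CPM in NK and 152 CPM in CD8 T barcodes of pBIC10 (log2 ratio 3.99, 3.87 to 4.10) and 2417 and 91.4 CPM in pBIC (4.72, 4.63 to 4.81), with a UMI in 16 of 16 and 39 of 42 members. Fcer1g, the adaptor that NKp46 and CD16 use, had 774 and 139 CPM in pBIC10 and 1744 and 60.6 CPM in pBIC in the same order. Cd244a (2B4) had log2 ratios of 4.0 and 4.88 and Lat2 of 2.79 and 3.78. Lat, the scaffold of T-cell receptor signalling, went the other way with -5.75 (-8.02 to -4.20) and -3.27 (-3.70 to -2.88), as did Cd2 with -2.72 and -1.48. The ranking rule named 12 genes outside the lists as lower in NK barcodes of both mice. Among them were Themis and Grap2, further T-cell signalling genes, and Penk, which encodes proenkephalin. The others were Adam19, Ier3, Lat, Chchd10, Mzb1, Cybb, Ms4a6b, Ifitm3 and Acp5. Penk had 7.33 CPM in NK and 578 CPM in CD8 T barcodes of pBIC10, and 1.99 and 139 CPM in pBIC. The CD8 T barcodes here had no limit on B-cell or monocyte transcripts. Against CD8 T barcodes without Ncr1 and held to the NK limits, Tyrobp had log2 ratios of 5.59 in pBIC10 and 6.46 in pBIC. Fcer1g then had 4.19 and 6.72. Mzb1 and Cybb no longer reached the minimum against these barcodes in either library, nor did Ifitm3 in pBIC10.

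**Figure D1:**
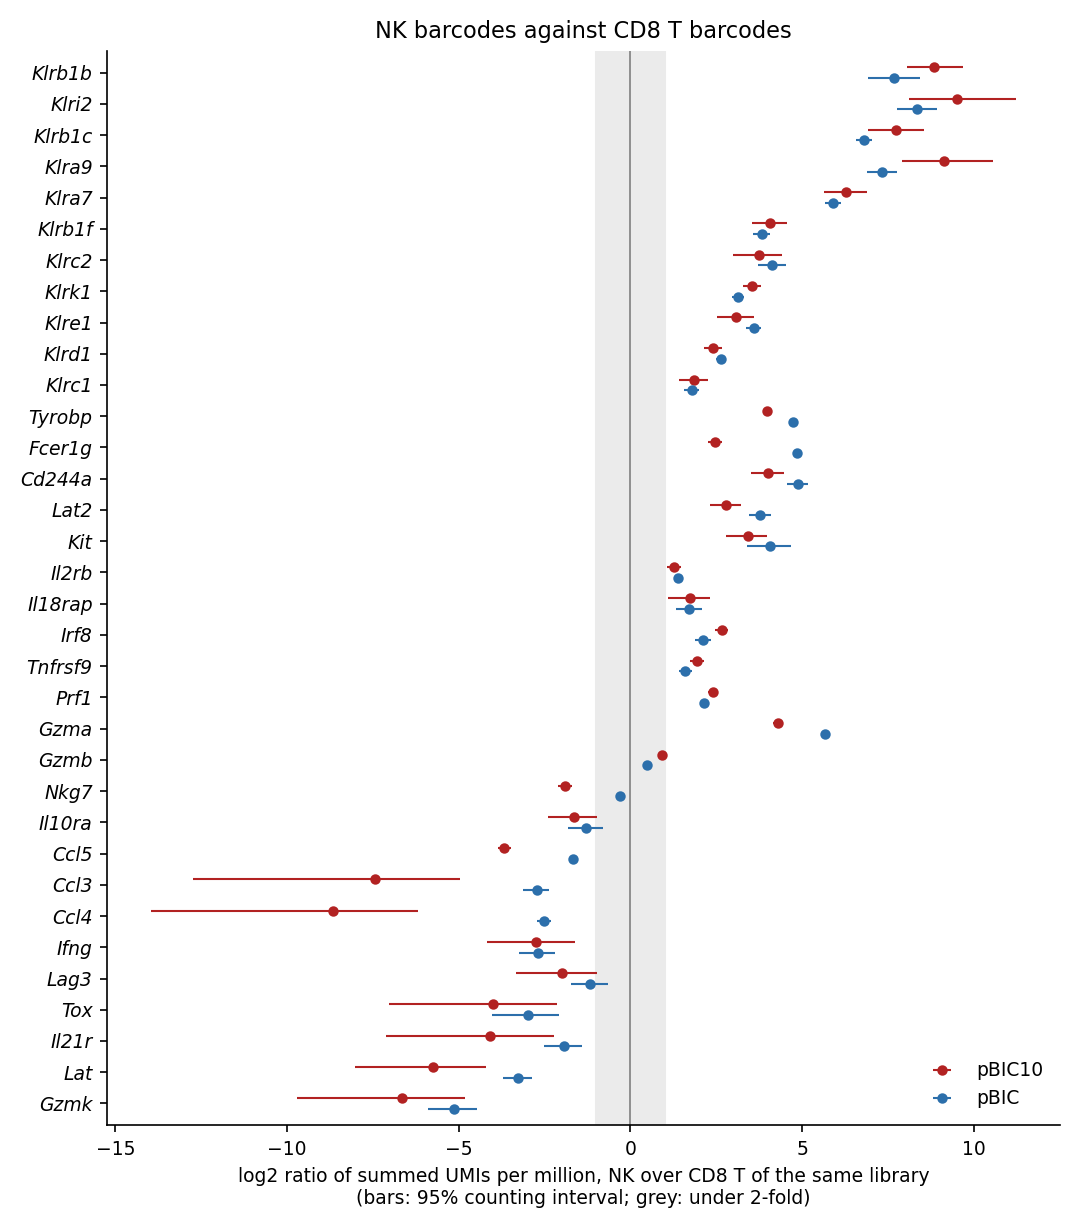
Log2 ratio of summed UMIs per 1000000 in NK barcodes over CD8 T barcodes of the same library (x axis) for 34 genes (y axis), pBIC10 above pBIC, with 95% counting intervals as bars and the range under 2-fold in grey. NK receptor genes, Tyrobp, Fcer1g, Prf1 and Gzma (1.21 in pBIC10 without 1 barcode) lie to the right in both libraries, and Ifng, Ccl3, Ccl4, Ccl5, Tox, Lat and Gzmk to the left, with wider bars in pBIC10.

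Cytotoxic granule genes differed in direction: 5 of 14 were higher and 2 lower in pBIC10 (median log2 ratio 0.79), and 5 of 15 and 2 in pBIC (-0.11). Prf1, perforin, had 1664 CPM in NK and 317 CPM in CD8 T barcodes of pBIC10 and 1278 and 288 CPM in pBIC, a log2 ratio of 2.39 and 2.15. Gzma, the tryptase granzyme A, had log2 ratios of 4.31 and 5.68, but 1 barcode held 89.3% of its pBIC10 NK UMIs, and without it the pBIC10 ratio was 1.21. Gzmc had ratios of 8.19 and 5.51, the second 4.62 without the richest NK barcode. Ctsw had 1.46 and 1.10, under 2-fold at 0.80 in pBIC10 with barcodes weighted equally and at 0.97 in pBIC against CD8 T barcodes held to the NK limits. Serpinb9, an inhibitor of granzyme B, had 1.06 and 1.45, under 2-fold at 0.89 in pBIC10 without its richest NK barcode. Gzmb, granzyme B, was within 2-fold in both mice at 0.92 and 0.48, with 1998 and 1058 CPM in NK and CD8 T barcodes of pBIC10 and 3789 and 2724 CPM in pBIC. With barcodes weighted equally the Gzmb ratio in pBIC10 was 1.21, past 2-fold. Gzmk was lower at -6.66 (-7.56 without its richest NK barcode) and -5.14, and in pBIC10 Nkg7, a granule membrane gene shared by NK and T cells, was lower at -1.90.

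Secreted cytokines and chemokines were mostly lower in NK barcodes, in 5 of 8 genes in pBIC10 and 6 of 10 in pBIC (median log2 ratio -2.08 and -2.09). Ifng had 22 CPM in NK and 147 CPM in CD8 T barcodes of pBIC10 and 63.7 and 413 CPM in pBIC. Ccl5 had 796 and 10116 CPM in pBIC10 and 8970 and 28594 CPM in pBIC, in the same order. Ccl4 had a log2 ratio of -8.68 (-13.98 to -6.20) in pBIC10, where a single NK UMI was counted, and -2.51 in pBIC, or -4.04 without its richest NK barcode. Without that of Ccl5 in pBIC10, the Ccl5 ratio there was -6.44 in place of -3.67. Il10 itself had 1 UMI in the NK barcodes of each library, 3.67 CPM in pBIC10 and 1.99 CPM in pBIC, against 27.4 and 41.1 CPM in CD8 T barcodes. Il10ra, whose product binds IL-10, was lower at -1.64 and -1.29, with a UMI in 11 of 16 pBIC10 and 16 of 42 pBIC members.

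Checkpoint receptors were lower in 4 of 7 genes in each mouse and higher in none (median log2 ratio -2.0 in pBIC10 and -1.17 in pBIC). Lag3 had ratios of -2.0 (-2.69 without its richest NK barcode) and -1.17. Ctla4 had -4.38 (-5.31 without its richest NK barcode) and -1.23, which was under 2-fold at -0.89 with CD3-bearing barcodes counted. Pdcd1 (PD-1) had no UMI in pBIC10 NK barcodes, at least 12.5-fold lower than the 137 CPM of CD8 T barcodes against a floor of 3 UMIs over the set, and a ratio of -5.11 in pBIC. Tox, a regulator of exhausted T cells, had -3.99 and -2.97. Among 17 lineage transcription factors, Irf8, which NK cells need for antiviral expansion in the mouse, was higher in both mice at 2.66 and 2.11. Eomes was within 2-fold at 0.59 and -0.58. Tbx21 (T-bet) was higher in pBIC at 2.04 and was too sparse in pBIC10.

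Receptors for growth signals included Il2rb, with 719 CPM in NK and 298 CPM in CD8 T barcodes of pBIC10 and 1173 and 452 CPM in pBIC, and Il18rap, with ratios of 1.73 and 1.71. The Il2rb ratio in pBIC10 was 0.88, under 2-fold, without its richest NK barcode. Il21r was lower at -4.08 (-5.05 without its richest NK barcode) and -1.94. Kit, the receptor for stem cell factor, had ratios of 3.41 and 4.06 and a UMI in 12 of 16 pBIC10 and 13 of 42 pBIC members. Tnfrsf9 (4-1BB), a costimulatory receptor, was higher at 1.95 and 1.6. None of 14 proliferation genes passed 2-fold either way in either mouse, with medians of -0.59 and 0.17, and of 11 MHC class I genes 1 did, Nlrc5, lower in pBIC10 at -1.54. Interferon-response genes were lower in 2 of 6 and 4 of 9 and higher in none, among them Ifi27l2a at 0 UMIs in pBIC10 NK barcodes and at -4.18 in pBIC.

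Outside the fixed lists, the ranking rule put Atp1b1, a sodium pump subunit, first among genes higher in NK barcodes, at 121 CPM in NK and 2.73 CPM in CD8 T barcodes of pBIC10 and 199 and 3.71 CPM in pBIC. C1qtnf6 followed at log2 ratios of 4.49 and 4.75, Nrgn (neurogranin) at 3.80 and 4.38, Upp1 at 3.02 and 3.94, Khdc1a at 3.13 and 7.53, Pecam1 (CD31) at 4.05 and 2.48, and Gadd45g, a stress-kinase activator, at 4.99 and 1.89. Car2, carbonic anhydrase 2, had 194 CPM in NK and 27.3 CPM in CD8 T barcodes of pBIC10 and 597 and 74.6 CPM in pBIC. It stood on the erythroid list, whose globin gene Hbb-bs was within 2-fold at -0.86 in pBIC10 and lower at -2.06 in pBIC.

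The second comparison set NK barcodes of pBIC10 against those of pBIC. In pBIC10 they held the granzyme C to G group, Klrg1, Havcr2, Irf8, Thy1, Srgn and MHC class II transcripts at higher levels. Gzma, Ccl5, Xcl1, most measured Ly49 genes, Cd7 and Nkg7 were at lower levels. Of 3801 genes, 6.79% were at least 2-fold higher and 13% at least 2-fold lower, 19.8% in either direction, around a median log2 ratio of -0.09. In CD8 T barcodes of the same mice 10.5% of 13797 genes were higher and 10.1% lower, around -0.16, and that ratio is given beside the NK one.

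Gzmc reached the highest level of the granzyme C to G group. The 16 pBIC10 members had from 0 to 1130 UMIs of Gzmc with a median of 51.5, and the 42 pBIC members from 0 to 13 with a median of 0. It had a UMI in 10 of 16 pBIC10 and 7 of 42 pBIC members, and 10 or more UMIs in 9 and 1. In sums this came to 14682 CPM in pBIC10 and 51.8 CPM in pBIC, a log2 ratio of 8.15 (7.59 to 8.76), while CD8 T barcodes had 50.2 CPM in pBIC10 and 1.14 CPM in pBIC (5.47). The ranges of members overlapped at the low end only, and the highest pBIC10 member held 28.2% of the pBIC10 UMIs. Without the top member of each library the log2 ratio was 8.72, and without members whose barcode occurs in both libraries it was 7.73.

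The neighbours of Gzmc were also at higher sums in pBIC10, Gzmf and Gzmg mainly through single barcodes. Gzmd had 2493 CPM in pBIC10 and 5.97 CPM in pBIC (log2 ratio 8.71, 7.15 to 10.99), with UMIs in 7 of 16 and 1 of 42 members. Gzme had 1067 and 15.9 CPM (6.07), with UMIs in 6 and 1 members. Gzmf had 546 CPM in pBIC10 and Gzmg 2335 CPM, both in 4 of 16 members, and neither had a UMI in pBIC. However, 1 barcode held 91.9% of the Gzmf UMIs and another barcode 92.9% of the Gzmg UMIs. Without the top members the log2 ratios, as bounds, were at least 2.98 for Gzmf and 4.89 for Gzmg. Together the 5 genes made up 21123 CPM in pBIC10 and 73.7 CPM in pBIC NK barcodes, and Gzmc was 69.5% of the sum in pBIC10. Gzmd had a UMI in 7 of the 9 pBIC10 members with 10 or more Gzmc UMIs and in none of the other 7, whose median total was 5956 UMIs against 23498. In CD8 T barcodes Gzmd had 48.6 CPM in pBIC10 and no UMI in pBIC.

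Granzymes C to G are serine proteases encoded side by side in the mouse on chromosome 14, in the cluster that also holds Gzmb, while Gzma lies on chromosome 13. The 120 bases before each start site are shown for the 5 genes of granzymes C to G and for Gzmb and Gzma. They come from RefSeq on GRCm38.p6, 5′ to 3′ along each gene's strand (minus for all 7). Capitals mark a stretch of 20 bases that all 5 share, the longest such run, which was picked out after the expression values were known.
Gzmc, chr14:56234658-56234777: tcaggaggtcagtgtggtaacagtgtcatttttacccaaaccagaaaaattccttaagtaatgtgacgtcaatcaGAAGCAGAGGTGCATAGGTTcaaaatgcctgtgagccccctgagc
Gzmd, chr14:56132594-56132713: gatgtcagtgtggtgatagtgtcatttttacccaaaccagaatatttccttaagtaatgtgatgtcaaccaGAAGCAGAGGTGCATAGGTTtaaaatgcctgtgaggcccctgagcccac
Gzme, chr14:56120626-56120745: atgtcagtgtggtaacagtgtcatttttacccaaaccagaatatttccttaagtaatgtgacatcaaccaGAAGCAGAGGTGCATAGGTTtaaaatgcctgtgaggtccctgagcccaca
Gzmf, chr14:56211408-56211527: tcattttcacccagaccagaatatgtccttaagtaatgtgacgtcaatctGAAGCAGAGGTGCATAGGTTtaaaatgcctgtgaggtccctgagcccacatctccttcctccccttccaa
Gzmg, chr14:56159580-56159699: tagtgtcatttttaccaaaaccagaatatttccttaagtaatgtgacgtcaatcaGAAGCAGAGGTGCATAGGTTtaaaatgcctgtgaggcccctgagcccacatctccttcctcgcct
Gzmb, chr14:56262335-56262454: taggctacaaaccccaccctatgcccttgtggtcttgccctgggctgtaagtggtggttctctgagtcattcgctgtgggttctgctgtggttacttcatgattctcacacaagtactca
Gzma, chr13:113100982-113101101: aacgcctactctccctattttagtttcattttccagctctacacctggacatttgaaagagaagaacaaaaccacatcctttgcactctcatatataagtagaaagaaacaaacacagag

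Aligned in pairs, the upstream windows of the 5 genes were 59.3 to 94.2% identical over 10 pairs, and the 11 pairs with Gzmb or Gzma were 40.7 to 52.2% identical. The shared stretch occurred in 5 of 32851 RefSeq windows of this length, those of the 5 genes. Its presence in these 5 was fixed by how it was picked, so the count says nothing about expression. Searched on both strands, the cAMP response element TGACGTCA was in the windows of Gzmc, Gzmf and Gzmg and in 1.24% of all windows. The RUNX core TGTGGT was in those of Gzmc, Gzmd, Gzme, Gzmb and Gzma and in 6.72% of all, the AP-1 site TGANTCA in that of Gzmb and in 3.41% of all, and the STAT site TTCNNNGAA in none of the 7 and in 3.15% of all. Matches of different motifs were counted separately even where they overlap, and a match describes letters, not a bound site. The transcripts of these paralogs are alike too, so reads may have been split or dropped among Gzmc, Gzmd, Gzme, Gzmf and Gzmg, and their sum is firmer than the share of each.

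Gzma ran the other way. The pBIC10 members had from 0 to 393 UMIs with a median of 0, and the pBIC members from 0 to 718 with a median of 58. It summed to 1613 CPM in pBIC10 and 13601 CPM in pBIC (log2 ratio -3.08, -3.22 to -2.94), next to 81.4 and 266 CPM in CD8 T barcodes (-1.71). At least 10 UMIs were present in 2 of 16 pBIC10 and 26 of 42 pBIC members, and 1 pBIC10 member held 89.3% of the pBIC10 UMIs. The same member was the richest of pBIC10 in Ccl5 (188 UMIs), Klrb1c (20 of 35 UMIs) and Klra7 (14 UMIs), so these pBIC10 levels are not independent. Without the top member of each library the Gzma log2 ratio was -6.06, and among members free of T-cell transcripts it was -1.56. No pBIC10 member had 10 or more UMIs of Gzma with fewer than 10 of Gzmc, whereas 25 of 42 pBIC members did.

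**Figure D2:**
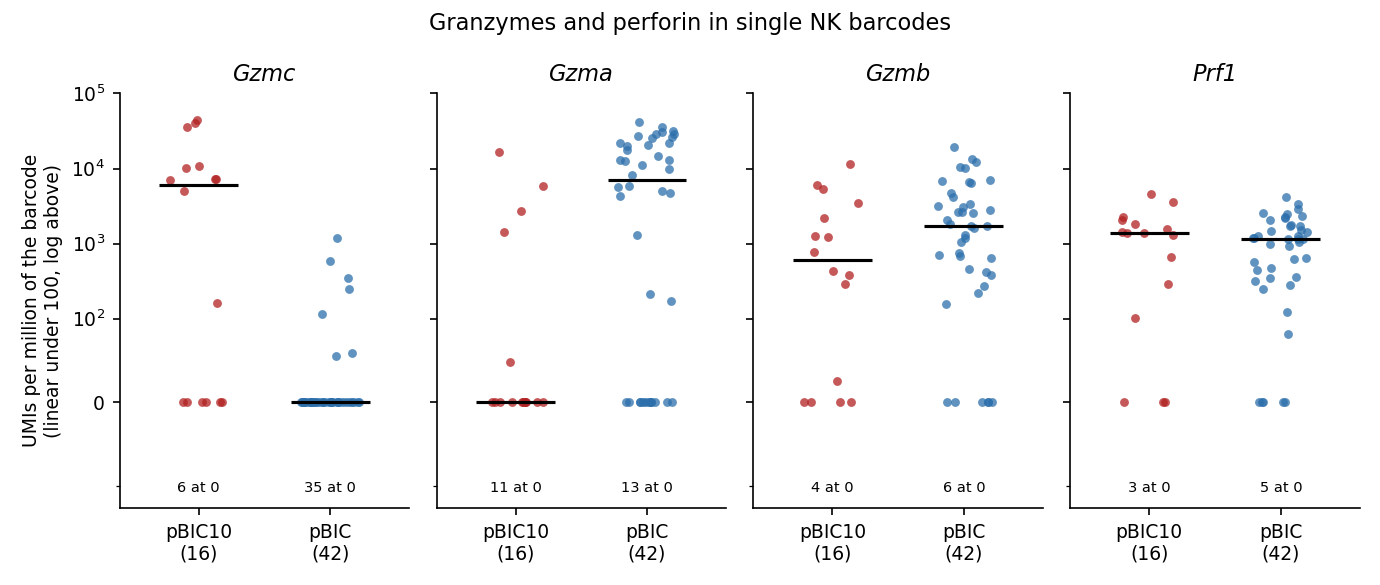
UMIs per 1000000 of each barcode (y axis, linear under 100 and logarithmic above) for Gzmc, Gzma, Gzmb and Prf1 in the 16 NK barcodes of pBIC10 and the 42 of pBIC, 1 point per barcode, with the median as a bar and the number of barcodes at 0 printed below. Gzmc is at 0 in 6 pBIC10 and 35 pBIC barcodes and Gzma in 11 and 13, while Gzmb and Prf1 overlap over most of their ranges.

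The rest of the granule genes were closer. Gzmb had 1998 CPM in pBIC10 and 3789 CPM in pBIC (log2 ratio -0.92, CD8 T -1.36), and Prf1 1664 and 1278 CPM (0.38, CD8 T 0.14). The Gzmb ratio was past 2-fold at -1.30 without members with a shared barcode and at -1.18 with CD3-bearing barcodes counted. Srgn, serglycin, the proteoglycan that packs granules, had 2683 and 892 CPM (1.59, CD8 T 0.55). Cst7 (cystatin F, an inhibitor of granule cathepsins) was higher at 1.26 and Rab27a, which docks granules for release, at 1.29, with CD8 T ratios of -0.45 and 0.24. With CD3-bearing barcodes counted, both NK ratios were under 2-fold, at 0.85 and 0.91. Nkg7 was lower at 697 and 2835 CPM (-2.03, CD8 T -0.44). As a list, 4 of 13 granule genes were higher and 2 lower in pBIC10 NK barcodes (median -0.57), and 1 of 16 and 6 in CD8 T barcodes (-0.61).

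The measured Ly49 genes were mostly at lower levels in pBIC10, and the NKG2, CD94 and NKR-P1 genes went both ways. Of 6 Ly49 genes 5 were lower (median log2 ratio -2.51), and of 7 in CD8 T barcodes 6 were lower (-2.48). Klra1 had 3.67 CPM in pBIC10 and 191 CPM in pBIC, Klra4 22 and 161 CPM (-2.87, or -3.70 without members with a shared barcode), Klra7 128 and 424 CPM, and Klra8 33.0 and 145 CPM. Klra9 was within 2-fold at -0.98 and at -0.43 with barcodes weighted equally. It was past 2-fold at -1.15 without the top members, -1.21 without members with a shared barcode and -1.49 with CD3-bearing barcodes counted. Of 11 NKG2, CD94 and NKR-P1 genes 2 were higher and 4 lower (-0.88), and in CD8 T barcodes 0 and 5 of 11 (-0.94). Klrb1c was lower at 128 and 554 CPM (-2.11, -2.66 to -1.60), or -3.15 without the top member of each library. Its inhibitory relative Klrb1b was at 216 and 81.6 CPM (1.41, 0.81 to 2.02), or 0.75 with barcodes weighted equally.

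Klrg1, an inhibitory receptor for cadherins that marks late NK maturation in the mouse, was higher in pBIC10. Its members there had 0 to 39 UMIs with a median of 11, against 0 to 12 with a median of 0 in pBIC, or 741 and 129 CPM (2.52, 2.11 to 2.94; CD8 T 0.84). Klrg1 reached 10 UMIs in 7 of the 9 pBIC10 members with 10 or more Gzmc UMIs and in 1 of the other 7, groups that also differed in depth as given above. Cd7, a lymphoid surface receptor gene, was lower, with 29.3 CPM in pBIC10 and 1655 CPM in pBIC (-5.82) and a UMI in 4 of 16 and 38 of 42 members, and CD8 T barcodes had 20.6 and 456 CPM (-4.47). Itgam was at 7.33 and 115 CPM (-3.98, CD8 T 0.62), in 2 of 16 and 19 of 42 members, and at -4.92 without members with a shared barcode. With barcodes weighted equally the Itgam ratio was -0.60, under 2-fold. Itgb7, an integrin chain of gut homing, was at 3.67 and 215 CPM (-5.87, CD8 T -2.48), or -4.18 without members with a shared barcode. Thy1 (CD90) was higher at 851 and 243 CPM (1.81, CD8 T 0.73). Of 12 trafficking genes 7 were lower and none higher (median -1.12), and of 19 in CD8 T barcodes 6 were lower and 1 higher (-0.85). Among the 7, Ccr7 came in pBIC from the single Fscn1-rich barcode and without it the pBIC NK barcodes had no Ccr7 UMI, a log2 ratio of at least 3.65 against a floor of 3 UMIs over the set.

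Havcr2 (TIM-3) had 84.3 CPM in pBIC10 and 9.96 CPM in pBIC NK barcodes (3.08, 1.66 to 4.83), in 7 of 16 and 4 of 42 members, and a CD8 T ratio of -0.04. Tigit was lower at 58.7 and 243 CPM (-2.05, CD8 T -0.22). Irf8 was higher at 814 and 317 CPM (1.36, 1.06 to 1.67; CD8 T 0.82). Its log2 ratio was 0.97, under 2-fold, when CD3-bearing barcodes without a contig were counted. Gadd45g was higher at 477 and 110 CPM (2.12), with a CD8 T ratio of -0.98. Fcer1g was lower at 774 and 1744 CPM (-1.17), with a CD8 T ratio of 1.20 from barcodes without a limit on monocyte transcripts. Its NK ratio was under 2-fold at -0.59 among members without T-cell transcripts and at -0.98 with barcodes weighted equally. Tyrobp was level at 2416 and 2417 CPM (0.00, -0.14 to 0.14).

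Chemokine and cytokine transcripts were lower in 5 of 8 genes and higher in none (median -2.51). In CD8 T barcodes 4 of 14 were lower and 1 higher (-0.51). Ccl5, a T-cell and monocyte attractant, had 0 to 188 UMIs per member with a median of 0.5 in pBIC10 and 1 to 780 with a median of 65.5 in pBIC. Its sums were 796 CPM in pBIC10 and 8970 CPM in pBIC (-3.50; CD8 T -1.50), and the barcode richest in Gzma held 86.6% of the pBIC10 UMIs. Without the top member of each library the Ccl5 ratio was -6.03. Xcl1, which attracts cross-presenting dendritic cells, had a UMI in 2 of 16 pBIC10 and 19 of 42 pBIC members, or 25.7 and 344 CPM (-3.75, -5.08 to -2.67), while CD8 T barcodes had 68.5 and 37.2 CPM (0.88). Ccl3 was at 3.67 and 113 CPM (-4.95) and Ccl4 at 3.67 and 412 CPM (-6.81, or -5.12 without members with a shared barcode). Without the top member of each library, which left pBIC10 at 0 UMIs, Ccl3 was at most -2.44 and Ccl4 at most -3.70. With barcodes weighted equally Ccl3 was at -5.52 and Ccl4 at -2.25. Ifng was at 22 and 63.7 CPM (-1.53, CD8 T -1.49), a ratio that turned to 0.49 when each barcode was weighted equally.

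Proliferation genes were lower in 8 of 14 and higher in none (median -1.27), and in CD8 T barcodes in 3 of 14 (-0.61). Mki67 had 99.0 CPM in pBIC10 and 388 CPM in pBIC (-1.97, CD8 T -1.01), yet 10 of 16 and 22 of 42 members had a UMI of Mki67 or Top2a. With barcodes weighted equally the ratio was -0.71 for Mki67, -0.46 for Top2a and -0.83 for the median of the list, all under 2-fold. By the ranking rule Ube2c (-4.37), Tpx2 (-4.98) and 5 replication-dependent histone genes were among the 10 genes most clearly lower. Dgka, a diacylglycerol kinase, was lower at -4.70 and Crip1 at -2.29, and Emid1 had no UMI in pBIC10 and 87.6 CPM in pBIC. On the higher side the rule named Il1r2, the decoy receptor for IL-1, with 627 CPM in pBIC10 and no UMI in pBIC, at least 105-fold higher, of which 79.5% came from 1 barcode. In CD8 T barcodes Il1r2 had 297 CPM in pBIC10 and 16.8 CPM in pBIC. Ccl1 came almost wholly from 1 barcode (97.9%), and Clic3 and Scin had UMIs in 4 of 16 pBIC10 members each and none in pBIC.

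Of the genes that respond to IL-10 and STAT3, 3 of 7 were lower and none higher in pBIC10 NK barcodes (median -0.53), and 2 of 12 were lower in CD8 T barcodes (-0.71). The 3 were Bcl3 at -1.18, Zfp36 at -1.84 and Pim1 at -1.39. Il10ra was at 66.0 and 67.7 CPM (-0.04, -0.95 to 0.83). Il10rb, the shared receptor chain, was at 22 and 89.6 CPM (-2.03, CD8 T -0.97), and Il2ra was higher at 88.0 and 17.9 CPM (2.30, CD8 T 2.84). Of 11 MHC class I genes Nlrc5 alone was past 2-fold, lower at -1.39, and of 5 interferon-response genes Bst2 was higher at 1.5 and Ifi203 lower at -1.05. Of 5 stress genes Ddit4 was higher at 1.26.

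**Figure D3:**
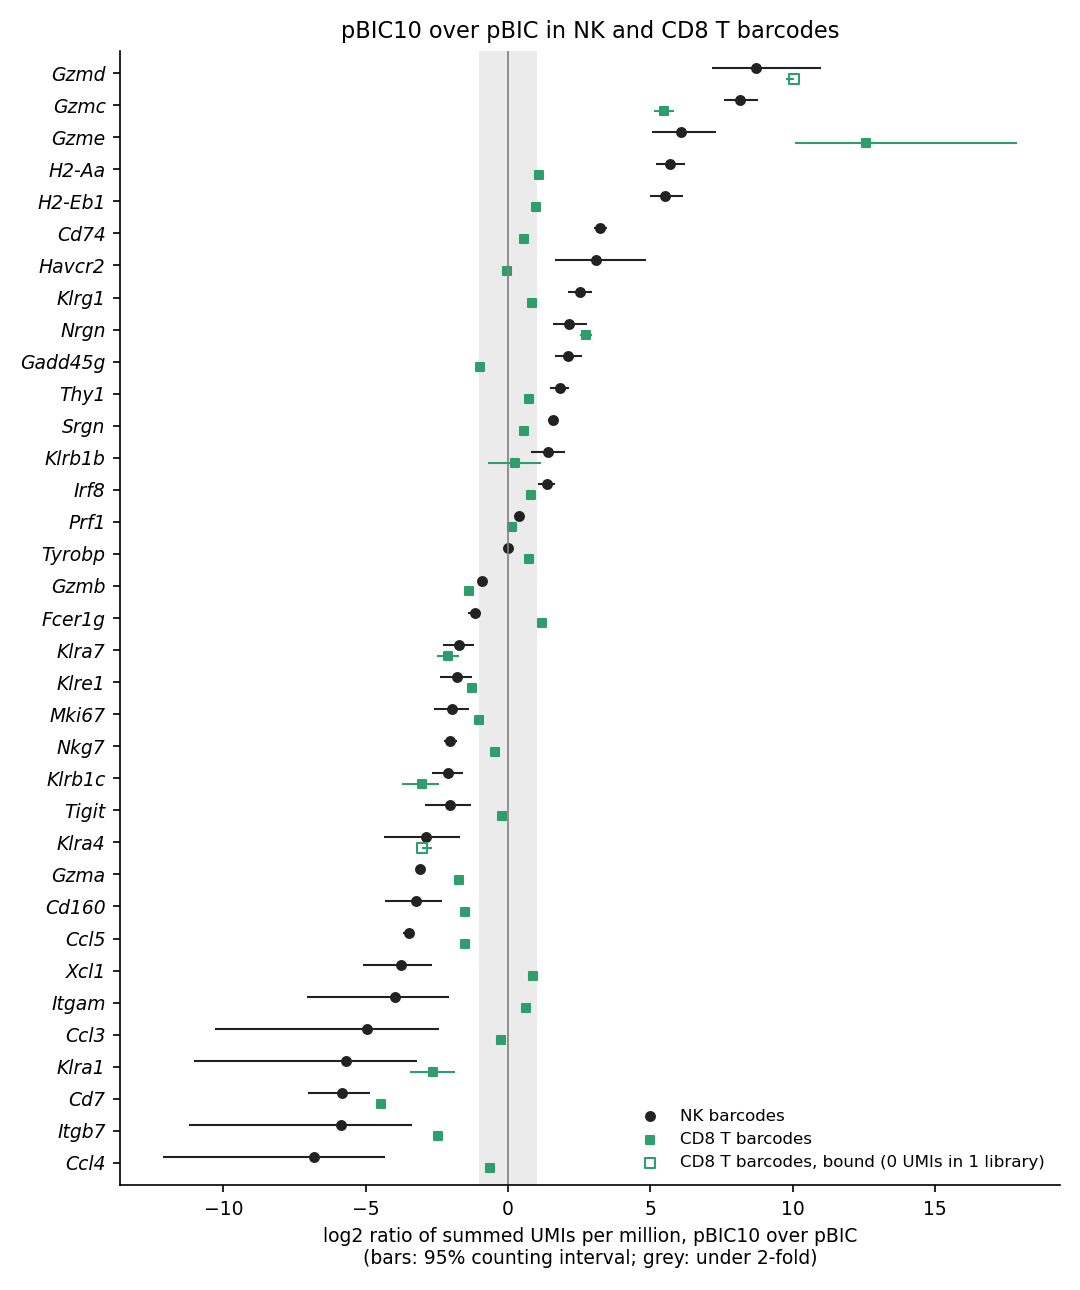
Log2 ratio of summed UMIs per 1000000 in pBIC10 over pBIC (x axis) for 35 genes (y axis), in NK barcodes (black circles) and CD8 T barcodes (green squares, open where a library had 0 UMIs and the value is a bound), with 95% counting intervals as bars and the range under 2-fold in grey. Gzmc, Gzmd and Gzme lie to the right in both cell sets, Havcr2 and Gadd45g in NK barcodes, and Ccl4, Itgb7, Cd7 and Klra1 to the left. H2-Aa, H2-Eb1 and Cd74 lie further to the right in NK barcodes than in CD8 T barcodes, which here had no limit on B-cell or monocyte transcripts.

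MHC class II genes, which present peptides to CD4 T cells, were higher in pBIC10 NK barcodes. H2-Aa and H2-Eb1 were named by the ranking rule, Cd74 stood on the B-cell list, and H2-Ab1 was added after its values were seen. Cd74, the invariant chain, had 1 to 331 UMIs per member with a median of 42.5 in pBIC10 and 0 to 18 with a median of 3 in pBIC, or 3930 and 414 CPM (3.25, 3.03 to 3.47; CD8 T 0.55). H2-Aa had 0 to 298 UMIs with a median of 28 in pBIC10 and 0 to 4 with a median of 1 in pBIC, or 3567 and 69.7 CPM (5.68, 5.19 to 6.21; CD8 T 1.08). H2-Eb1 had 2482 and 53.8 CPM (5.53) and H2-Ab1 1111 and 57.7 CPM (4.27). H2-Aa had a UMI in 15 of 16 pBIC10 and 23 of 42 pBIC members, and no single pBIC10 member held more than 30.9% of the UMIs of Cd74 or H2-Aa.

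These levels were read beside those of other barcode classes. CD8 T barcodes held to the same B-cell, monocyte and mitochondrial limits, and without Ncr1, had 286 CPM of H2-Aa in pBIC10 and 72.0 CPM in pBIC, and erythroid barcodes 210 and 138 CPM. B-lineage barcodes had 2530 CPM in pBIC10 and 1659 CPM in pBIC, and monocyte/macrophage barcodes 5112 and 4484 CPM. The NK level of H2-Aa was thus between the B-lineage and the monocyte/macrophage levels in pBIC10 and near that of CD8 T barcodes in pBIC. H2-Eb1 in pBIC10 was between them too, at 2482 CPM in NK, 2019 in B-lineage and 3488 in monocyte/macrophage barcodes. H2-Ab1 was below both, at 1111, 1810 and 3432 CPM in the same order. Cd74 was also below the B-lineage level in pBIC10, with 3930 CPM in NK, 1057 in CD8 T under the same limits, 416 in erythroid and 11021 in B-lineage barcodes. CD8 T barcodes under the same limits were thus higher in pBIC10 too, with 338 CPM of Cd74 in pBIC, and 254 and 65.1 CPM of H2-Eb1 in pBIC10 and pBIC. The CD8 T genotype ratios of Cd74 and H2-Aa given above came from CD8 T barcodes without these limits. The 6 B-cell transcripts summed to 3985 CPM in pBIC10 and 474 CPM in pBIC NK barcodes, of which Cd74 gave 3930 and 414 CPM, and Ms4a1, which encodes the B-cell marker CD20, was at 0 in pBIC10. Scrublet called none of the 58 NK barcodes a doublet. The part of free RNA and of doublets in the MHC class II level was not tested.

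**Figure D4:**
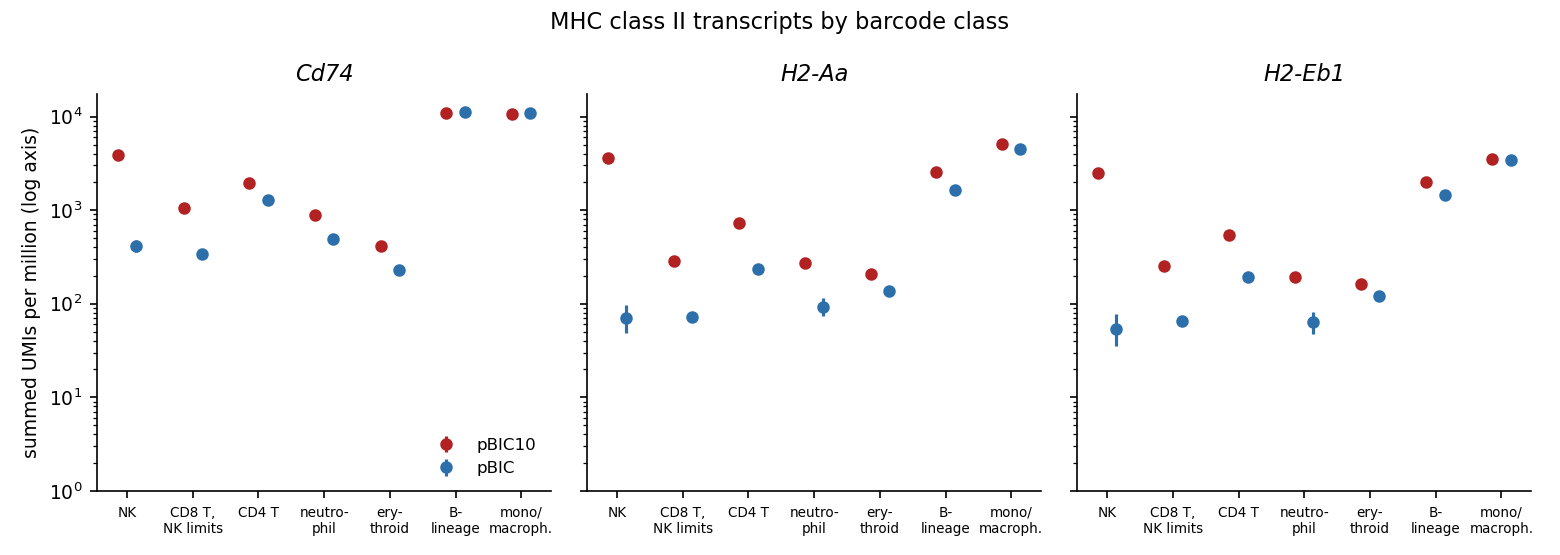
Summed UMIs per 1000000 on a log axis for Cd74, H2-Aa and H2-Eb1 in 7 barcode classes of pBIC10 (left of each pair) and pBIC, with 95% counting intervals where they exceed the symbol. The NK barcodes of pBIC10 lie far above those of pBIC, and the CD8 T, CD4 T, neutrophil and erythroid barcodes differ by less between the libraries.

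Within each library the NK barcodes were not alike. In pBIC, 10 or more Gzma UMIs were found in 18 of 19 members with Itgam and in 8 of 23 without, with median totals of 13675 and 8410 UMIs, and in 6 of 15 with Tcf7, a factor of less mature NK cells, and 20 of 27 without. Kit was present in 13 pBIC members, 6 of which had 10 or more Gzma UMIs. In pBIC10, 10 or more Gzmc UMIs were found in 2 of 7 members with Tcf7 and in 7 of 9 without, with median totals of 18712 and 22448 UMIs. Both Itgam and Cd27 were without a UMI in 14 of 16 pBIC10 and 16 of 42 pBIC members, Itgam alone was present in 1 and 10, Cd27 alone in 0 and 7, and both in 1 and 9. Gata3 had a UMI in 10 of 16 pBIC10 and 9 of 42 pBIC members. In barcodes drawn to 2000 UMIs its share was 15.4% in pBIC10 and 5.41% in pBIC, and that of Kit 15.4 and 10.8%, levels near 1 UMI from which no difference can be read. The share with Gzmc at that depth was 61.5% in pBIC10 and 5.41% in pBIC, and the share with Klrb1c 23.1 and 62.2%.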

How the data were processed

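The authors deposited 1 filtered matrix of UMI counts per spleen (32285 mouse features, raw whole-number counts, not normalized) and 1 table of TCR contigs per spleen with UMI and read counts. Per the submitters' processing notes, Cell Ranger 3.0.1 and GRCm39 were used, while the deposited matrix headers name cellranger 5.0.1, a difference that was not resolved here. The annotation release and the strand setting are not given in the sources used here. Median depth was 5458 UMIs per barcode in pBIC10 and 6235 in pBIC, 147884282 and 166941618 in total. Each library came from 1 mouse, the intervals cover counting error only, and PCR duplicates had been collapsed by UMI.

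Barcodes were selected by the transcript limits given above. Counts were summed per library and barcode set and expressed per 1000000 UMIs of the set (counts per 1000000, CPM), with exact Poisson intervals for levels, exact conditional binomial intervals for ratios and Clopper-Pearson intervals for shares. Ratios were read for genes whose mean level was worth at least 10 UMIs in the smaller set, and 2-fold was the mark. A set at 0 was put at a floor of 3 UMIs over the set, and the fold is then a bound. Shares were also taken after drawing each barcode to 2000 UMIs. Scrublet (scanpy 1.11.5, expected rate 0.08, threshold fixed at 0.3) called 396 of 14667 pBIC10 and 496 of 17871 pBIC barcodes, and calls were kept in and removed as an alternative. TMM factors (edgeR 4.0.16, R 4.3.3) were 0.983 and 1.06 for the NK sums of pBIC10 and pBIC and 0.911 and 1.05 for the CD8 T sums, and served as another scaling. The other steps used Python 3.11.15, numpy 2.4.6, pandas 2.3.3 and scipy 1.17.1, and the ratio code was checked on simulated counts.

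The members and the gene lists (276 genes, 273 of them among the features) were chosen with earlier results of these data known. Outside the lists, genes were named by rank of the interval bound nearest 0, with a UMI in at least 10% of barcodes of the higher set and without immunoglobulin, TCR segment, mitochondrial, ribosomal, sex-linked and predicted genes: 12 per direction higher or lower in NK than in CD8 T barcodes in both libraries, and 10 per direction between the genotypes. Upstream sequences came from RefSeq on GRCm38.p6, a build other than that of the counts, and were matched by gene symbol for 7 of 7 granzymes.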

Additional observations from a re-analysis of the deposited data

Results flagged for a closer look

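For 4 genes the difference between NK and CD8 T barcodes ran in opposite directions in the 2 mice, each past 2-fold. Whether the mice differ was not tested, since each ratio comes from 1 library. Xcl1 had a log2 ratio of NK over CD8 T barcodes of -1.42 in pBIC10, or -4.0 without its richest NK barcode there, and 3.21 in pBIC. H2-Aa had 2.66 and -1.95, H2-Eb1 2.46 and -2.09, and H2-Ab1 1.55 and -1.59, in pBIC10 and pBIC. For the 3 MHC class II genes the CD8 T barcodes had no limit on B-cell and monocyte transcripts, and against CD8 T barcodes held to the limits of the NK rule all 3 were under 2-fold in pBIC, at -0.05 for H2-Aa, -0.28 for H2-Eb1 and 0.14 for H2-Ab1.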

How the results depend on the processing

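Across alternatives, 323 of 379 values that answer a comparison stayed near the reported one, and of 4492 values of single genes 3990 did and 14 changed direction. Of the genes reported past 2-fold, 86 of 89 kept their direction under every alternative in NK against CD8 T barcodes of pBIC10, 88 of 91 in pBIC and 85 of 88 between the genotypes, and 78, 79 and 60 stayed past 2-fold. Counting CD3-bearing barcodes, a minimum of 2000 UMIs, and leaving out shared barcodes, the Fscn1-rich barcode or the top member of a gene (of NK alone against CD8 T, or of both libraries between genotypes) were alternatives chosen after seeing the data.

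Members without any Cd3d, Trac, Cd8a, Cd8b1 or Cd4 UMI (9 in pBIC10, 26 in pBIC) gave shares of 0.0600% in pBIC10 and 0.143% in pBIC, 92 genes lower than in CD8 T barcodes of pBIC10 and a trafficking median there of 0.79. Between genotypes they gave 157 genes higher and 212 lower, and medians of -1.21 for Ly49 genes, -0.94 for cytokines and chemokines and -0.35 for trafficking genes. At least 2 Ncr1 UMIs (9 and 37 members) gave a share of 0.0600% in pBIC10 and a cytokine median of -3.38. With CD3-bearing barcodes counted (20 and 122), the pBIC share was 0.673%, with 392 genes higher and 609 lower than in CD8 T barcodes of pBIC and medians of 6.35 for Ly49, -1.36 for cytokine and -0.16 for proliferation genes. Against CD8 T barcodes under the same limits, in pBIC, the medians were 7.60 for Ly49 and -2.23 for cytokine genes, Cd74 was 0.29 and H2-Ab1 0.14.

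The genotype ratio of Ccr7 was at least 3.65 among members with another NK marker or without the Fscn1-rich barcode, 3.68 without barcodes found in both libraries and 2.65 without the top members, each a bound against a pBIC count of 0, and 0.54 with CD3-bearing barcodes, and Ccl1 was -0.57 without its top member, with counts of 1 and 0 UMIs that allow no fold. Without the top NK barcode of the gene, ratios of NK over CD8 T barcodes were -1.08 for Il1r2 and -1.65 for Ccl1 in pBIC10 and at most -0.48 for Ccr7 in pBIC. Weighting barcodes equally gave 348 genes higher and 334 lower and a granule median of 0.53 in pBIC10, 396 higher in pBIC, 741 lower between genotypes, 0.58 for Ifitm3 in pBIC10, 0.64 for H2-Ab1 in pBIC and 0.49 for Ifng between genotypes. The cause of these shifts was not tested.

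Counts followed the marks. In NK against CD8 T barcodes of pBIC10, then of pBIC, then between genotypes, a level worth 20 UMIs gave 106 higher and 73 lower, 112 and 175, and 118 and 189 genes. A level worth 5 UMIs gave 400 and 453, 390 and 618, and 494 and 975. A 1.5-fold mark gave 499 and 421, 551 and 799, and 597 and 955, and a 3-fold mark 103 and 99, 109 and 176, and 114 and 184.

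At 2000 UMIs the share with Klrb1c was 23.1% in pBIC10 and 62.2% in pBIC, with Klra8 18.9% in pBIC, with Gzmc 5.41% in pBIC, with Kit 15.4% and 10.8%, and with Gata3 15.4% and 5.41%. No paired analysis was possible because each genotype had 1 library. Depth limits the pBIC10 values most, since 16 barcodes held 272779 UMIs.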

Other observations

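Early-activation genes between the genotypes were mostly within 2-fold in NK barcodes: of 7 measured, Egr1 and Tnfrsf18 (GITR) were higher in pBIC10, Cd69 was lower and 4 were neither. Egr1 had 187 CPM in pBIC10 and 31.9 CPM in pBIC (log2 ratio 2.55, with 0.08 in CD8 T barcodes), in 6 of 16 and 4 of 42 members. Tnfrsf18 had 286 and 97.6 CPM (1.55, CD8 T 0.43, and 0.94 in NK barcodes with CD3-bearing ones counted), and Cd69 18.3 and 69.7 CPM (-1.93, CD8 T -0.92). Among activating receptors and adaptors, Slamf7 alone was higher in pBIC10, at 286 and 139 CPM (1.04, but 0.92 without its top members and 0.60 with CD3-bearing barcodes counted), and 6 of 15 were lower, among them Cd160 at 36.7 and 344 CPM (-3.23, CD8 T -1.53) and Zap70, a kinase of ITAM signalling, at 40.3 and 185 CPM (-2.20, CD8 T -0.91).

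T-cell receptor constant-region transcripts were present in some members of both libraries. Tcrg-C4 had a UMI in 3 of 16 pBIC10 and 8 of 42 pBIC members, Trbc1 in 8 of 16 and 20 of 42, and Trbc2 in 3 of 16 and 15 of 42.

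Both Ncr1 and a TCR contig were found in 3 further barcodes of pBIC10 and 33 of pBIC. Of these, 3 of 3 in pBIC10 and 22 of 33 in pBIC had at least 2 of Klrb1c, Eomes, Prf1 and Klra8.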
